A study of Homo sapiens with 44 samples.

Results

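The cyclic nucleotide enzymes described here are the genes whose symbols name a phosphodiesterase (PDE followed by a number and 1 letter from A to D), a transmembrane or soluble adenylyl cyclase (ADCY), a subunit of soluble guanylyl cyclase (GUCY1A or GUCY1B) or a cGMP-dependent protein kinase (PRKG). They were found by symbol alone, without regard to level or response, and numbered 38 of the 40663 symbols in the count table. The cells were Ccd-18Co, an established line of human colon fibroblasts used up to passage 20 as a model of intestinal stroma. Before stimulation every well, controls included, had been kept without serum for 72 h. The 11 groups of 4 libraries were unstimulated cells and cells given 1 recombinant cytokine for 24 h in serum-free medium, namely IL-1β at 0.1 ng/ml or, at 10 ng/ml, TNF, TGF-β1, IFNγ, IFNα, oncostatin M (OSM), IL-22, IL-17A, IL-13 or IL-6. A figure legend of the study gives a lower IL-1β dose than its labels and methods do. The study made these libraries to learn which transcripts each cytokine changes in intestinal stromal cells. A single line stands for 1 genetic background, and the labels do not say that the 4 replicates of a group came from separate cultures, so p-values measure only the spread between these libraries, which may be technical.

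Cyclic AMP is made by adenylyl cyclases below G protein-coupled receptors and acts mainly through protein kinase A, whereas cyclic GMP is made in the cytoplasm by soluble guanylyl cyclase, a heterodimer of an alpha and a beta subunit that is switched on by nitric oxide. Phosphodiesterases end both signals by hydrolysis, and families differ in whether they cleave cAMP, cGMP or both. In smooth muscle and in contractile fibroblasts cGMP relaxes the cell through cGMP-dependent protein kinase, and PDE5A, the target of sildenafil, limits that signal.

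The libraries held 742173 to 2213424 estimated counts (median 1480882). A count of 3, the upper limit that a count of 0 allows, corresponded to 1.39 to 3.85 CPM (counts per 1000000 counts of a library's size after TMM scaling), and such limits cover counting error only. Where a fold is given as at least a value, the mean of the higher group was set against 3 counts per library. This leaves out the spread of the higher group, and 3 counts also stood for groups with at most 3 in every library. Fibroblast markers were abundant in every group (summed level of 12 genes 17916 to 52605 CPM), and the 3 endothelial markers summed to at most 2.65 CPM in any library, with all 3 at 0 in the unstimulated and the OSM libraries. The 4 epithelial markers summed to at most 26.6 CPM. The 4 immune markers summed to 0 to 7.83 CPM in unstimulated cells and 36.1 to 73.8 CPM with IFNα, where 3 of the 4 were at 0. The 1 that was tested, CD68, a lysosomal protein of macrophages and other cells, rose with IFNα (log2 fold change 4.23 ± 0.73, adjusted p = 3.43e-05) and IFNγ (2.15 ± 0.73, adjusted p = 0.0474). In bulk RNA, fewer cells of a kind and less RNA per cell cannot be told apart.

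Of the 38 genes, 15 had enough counts to be tested, and 23 did not pass the filter on low counts. Over the whole count table, 9513 of 40663 symbols passed that filter. The tested genes were 2 of 10 adenylyl cyclases (ADCY3 and ADCY7), both GUCY1A1 and GUCY1B1 out of 4 soluble guanylyl cyclase symbols, 5 of 8 cAMP-selective phosphodiesterases (PDE4B, PDE4D, PDE7A, PDE7B and PDE8A), 1 of 5 cGMP-selective ones (PDE5A), 2 of 8 that cleave both nucleotides (PDE1A and PDE10A), PDE6D, and both kinases (PRKG1 and PRKG2). Among the untested, GUCY1B2, a pseudogene, and PDE2A, a cGMP-stimulated phosphodiesterase, had no count in any library. PDE1C and PDE8B reached 14 counts in their highest library, ADCY6 reached 9, and PDE3A, PDE4A, PDE6B and PDE9A reached 8 each. ADCY9 reached 7 counts, and GUCY1A2, PDE3B and PDE6A reached 6 each. No library held more than 4 counts of ADCY1, ADCY2, ADCY4, ADCY5, ADCY8, ADCY10, PDE1B, PDE4C, PDE6C or PDE11A. These genes were below what this depth can follow, which is no evidence that they are absent.

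Per kilobase of canonical transcript, unstimulated cells carried most PDE6D (25.7 ± 9.50 CPM per kb, SD, n = 4), PDE5A (21.4 ± 4.05 CPM per kb) and GUCY1B1 (12.1 ± 2.51 CPM per kb). PDE6D encodes a chaperone of prenylated proteins and, in spite of its name, has no catalytic activity. PDE6D and PDE5A overlapped in their libraries, whereas the lowest PDE5A library (15.8 CPM per kb) lay above the highest GUCY1B1 library (14.8 CPM per kb). PDE7B followed at 5.70 ± 1.47 CPM per kb, and PDE4B, PDE8A and PDE1A, between 3.21 and 3.84 CPM per kb, overlapped each other. GUCY1A1, the alpha subunit, stood at 1.07 ± 0.877 CPM per kb, below its partner GUCY1B1 in each library. The remaining genes lay between 0.417 (PDE10A) and 1.33 CPM per kb (PRKG1), and each neighbouring pair from PDE7B down overlapped in its libraries. These lengths take 1 annotated transcript per gene (GENCODE release 44), and the isoform in use was not measured.

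**Figure D1:**
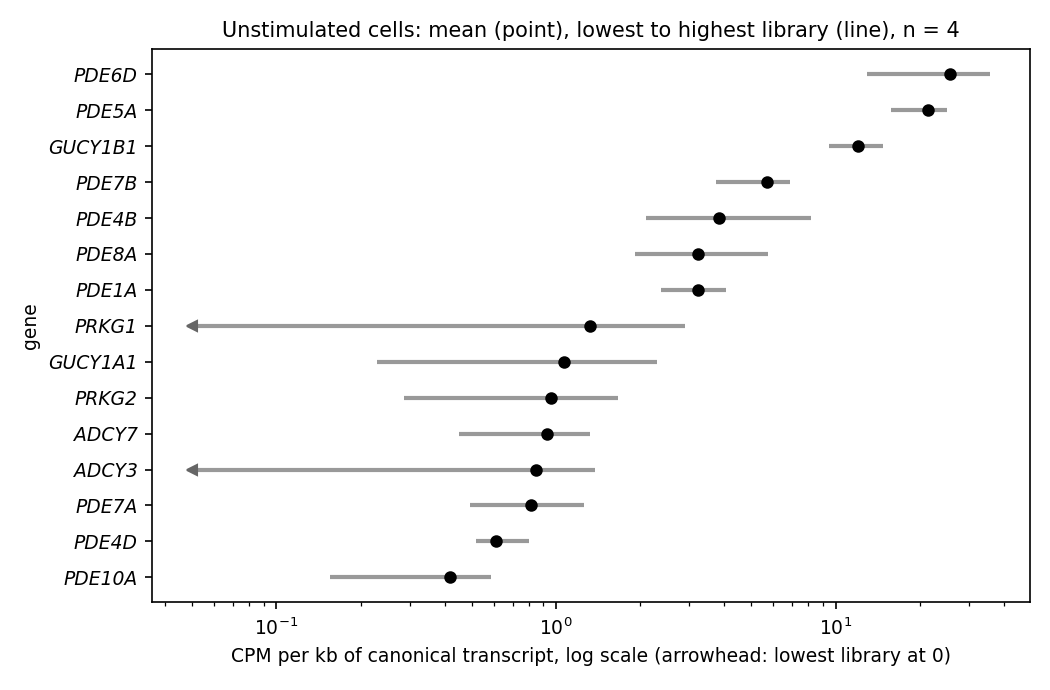
Level of the 15 tested genes in unstimulated cells in CPM per kb of canonical transcript on a log axis, with the mean of 4 libraries as a point and the lowest to highest library as a line. PDE6D, PDE5A and GUCY1B1 had means above 10 CPM per kb, and PRKG1 and ADCY3 had a library at 0.

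In all, 6 of the 15 tested genes passed edgeR's quasi-likelihood test (Benjamini-Hochberg adjusted p under 0.05 over all 9513 genes tested) against unstimulated cells with at least 1 cytokine, in 12 of 150 gene and cytokine pairs. All 10 comparisons use the same 4 unstimulated libraries. IL-1β raised PDE10A and lowered PDE1A and PDE5A, 3 of 15 genes where 7.38% of all genes tested were called. TNF raised PDE6D and lowered PDE1A and PDE5A, again 3 of 15, against 11.5% of all genes. OSM raised GUCY1A1 and GUCY1B1 and lowered PDE10A, 3 of 15 against 3.96%. TGF-β1 raised PDE10A and lowered PDE5A, 2 of 15 against 5.69%. IFNγ lowered PDE5A only among the 15, against 10.6%. No tested gene was called with IL-6 (1 at unadjusted p under 0.05), IL-13 (5), IL-17A (3), IL-22 (3) or IFNα (0), where 0.0105%, 3.93%, 1.52%, 0% and 9.85% of all genes were called. DESeq2 also called none of them with IL-6, IL-13, IL-22 and IFNα, and 1 with IL-17A. Across the 11 groups together, 8 of the 15 differed (the 6 above, PDE7B and PRKG2), against 35.7% of all genes.

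**Figure D2:**
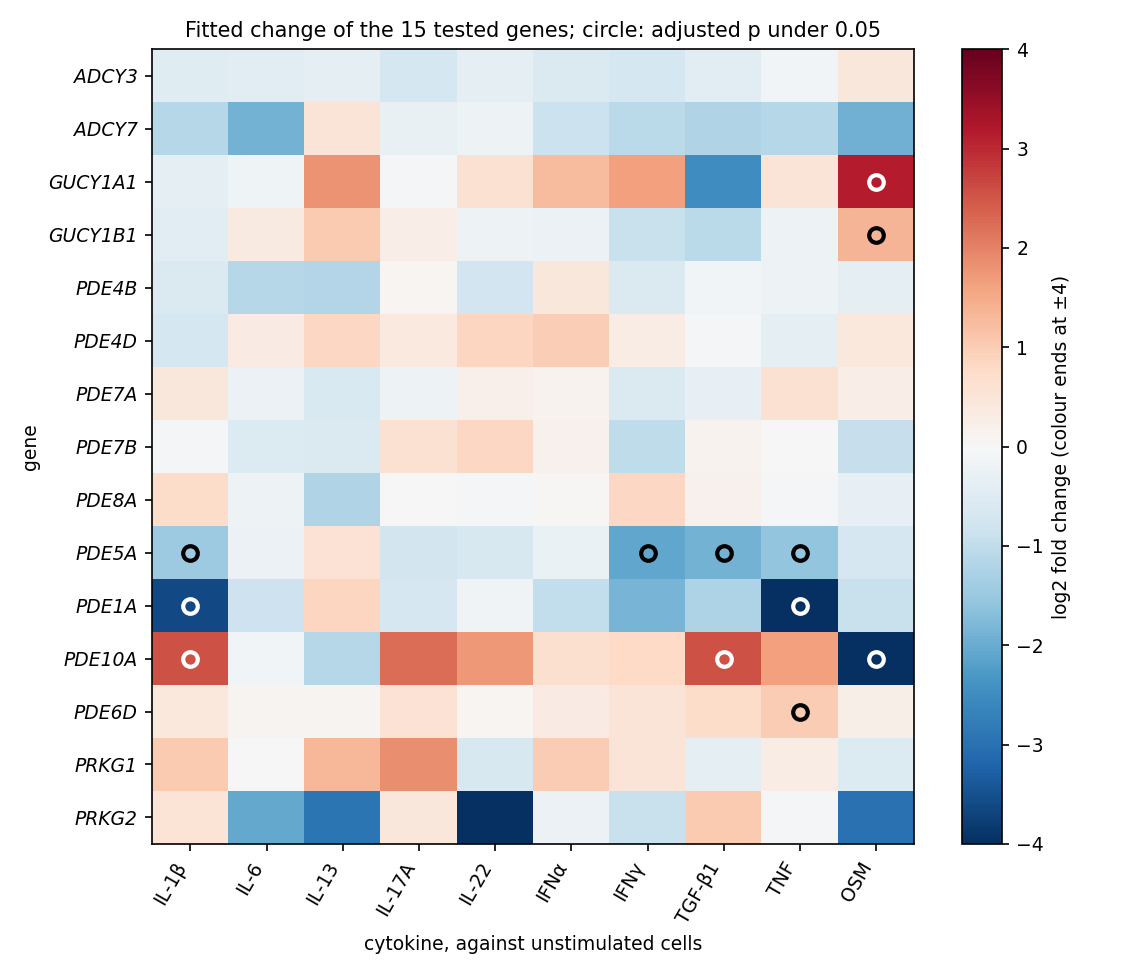
Fitted log2 fold change of the 15 tested genes (rows) after each of 10 cytokines (columns) against unstimulated cells, with red for higher, blue for lower, colours ending at ±4, and a circle where the adjusted p was under 0.05. The 12 circles fall in 6 rows, with 4 of them on PDE5A, and the columns of IL-6, IL-13, IL-17A, IL-22 and IFNα have none.

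The promoters shown are those of the guanylyl cyclase pair, called together with OSM, and of PDE5A and PDE10A, which were called in opposite directions with IL-1β and with TGF-β1. For each gene only the window nearest the start of its canonical transcript is described. That of PDE1A, 1 of 7 listed for this gene, held none of the motifs searched and is not printed. The windows are RefSeq's, each 300 bases long from 250 bases before to 50 after a transcription start on GRCh38.p14, and are read on the gene's strand. GUCY1A1 lies at chr4:155666598-155666897 (plus strand), GUCY1B1 at chr4:155758771-155759070 (plus strand), PDE5A at chr4:119628755-119629054 (minus strand) and PDE10A at chr6:165663192-165663491 (minus strand). Capitals mark GC boxes (GGGCGG) and CCAAT boxes (CCAAT) on either strand.
GUCY1A1 promoter: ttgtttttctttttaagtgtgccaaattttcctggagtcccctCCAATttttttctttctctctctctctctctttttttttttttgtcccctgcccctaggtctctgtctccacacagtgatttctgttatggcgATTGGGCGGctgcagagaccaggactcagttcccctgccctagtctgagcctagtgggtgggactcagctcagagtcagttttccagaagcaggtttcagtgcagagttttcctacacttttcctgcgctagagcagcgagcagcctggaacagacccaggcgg
GUCY1B1 promoter: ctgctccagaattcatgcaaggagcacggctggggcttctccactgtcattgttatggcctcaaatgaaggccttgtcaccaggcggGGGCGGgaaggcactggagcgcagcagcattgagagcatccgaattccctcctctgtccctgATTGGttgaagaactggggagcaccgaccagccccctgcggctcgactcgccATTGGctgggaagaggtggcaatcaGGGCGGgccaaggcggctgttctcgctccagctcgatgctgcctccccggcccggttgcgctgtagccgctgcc
PDE5A promoter: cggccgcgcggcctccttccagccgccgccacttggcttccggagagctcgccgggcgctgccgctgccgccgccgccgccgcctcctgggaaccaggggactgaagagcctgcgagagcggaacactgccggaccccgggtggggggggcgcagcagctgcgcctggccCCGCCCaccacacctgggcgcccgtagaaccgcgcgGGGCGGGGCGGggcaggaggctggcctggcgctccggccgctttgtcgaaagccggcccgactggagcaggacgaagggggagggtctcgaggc
PDE10A promoter: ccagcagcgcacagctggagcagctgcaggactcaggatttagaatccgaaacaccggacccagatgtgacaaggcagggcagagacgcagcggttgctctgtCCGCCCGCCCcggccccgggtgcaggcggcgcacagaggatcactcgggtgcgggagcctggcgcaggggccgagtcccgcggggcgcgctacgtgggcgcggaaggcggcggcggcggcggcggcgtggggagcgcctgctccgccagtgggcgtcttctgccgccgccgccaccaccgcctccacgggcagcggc
Both guanylyl cyclase windows held both motifs, with 1 GC box and 2 CCAAT boxes in GUCY1A1 and 2 of each in GUCY1B1. PDE5A had 3 GC boxes, a pair of which share 1 base, and PDE10A had 2 that share 2 bases, and neither held a CCAAT box. In GUCY1A1 the GC box shares 2 bases with a CCAAT box. Of 35116 RefSeq windows of that length, 45.0% held a GC box and 34.6% a CCAAT box, and of the 14 tested genes with a window, 7 and 5 did. A STAT element (TTCNNNGAA, in 7.66% of all windows) was found in 1 of the 14 (ADCY7), a CRE half-site (TGACG, 24.6%) in 2, an NF-kB motif (11.3%) in 1 and a SMAD element (GTCTAGAC, 0.202%) in none. Motifs were searched on both strands, and a match is a description of the letters only.

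Soluble guanylyl cyclase responded to OSM, a cytokine of the IL-6 family, with both subunits. Their genes are neighbours on chromosome 4 (GUCY1A1 at chr4:155666726-155737059 and GUCY1B1 at chr4:155758992-155807811), 21932 bases apart with 0 protein-coding genes between them. GUCY1A1 had 7.34, 8.75, 2.11 and 21.2 CPM in the unstimulated libraries and 107, 76.5, 96.1 and 66.8 CPM with OSM. Every OSM library lay above every unstimulated library and above all libraries of the other cytokines. GUCY1A1 rose by 3.13 ± 0.64 on the log2 scale (SE, n = 4 per group, adjusted p = 0.00124), or 8.78-fold.

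GUCY1B1, the beta subunit that carries the haem, had 35.3, 45.9, 50.0 and 32.1 CPM in unstimulated cells and 129, 119, 90.1 and 78.3 CPM with OSM. The groups did not overlap, and the change was smaller than that of GUCY1A1, at 1.35 ± 0.38 on the log2 scale (adjusted p = 0.0317). This call was lost when any 1 of unstimulated replicates 1, 2 and 4 or OSM replicates 1 and 2 was left out (adjusted p up to 0.115), while that of GUCY1A1 was kept in all 14 alternative fits (6 other settings and 8 fits without 1 library). Without unstimulated replicate 4 the GUCY1A1 change came to 3.81. There were 0.645 to 1.07 GUCY1A1 counts per GUCY1B1 count in the OSM libraries and 0.0423 to 0.660 in the unstimulated ones, a ratio not corrected for length that was given no test.

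After TGF-β1, 3 of the 4 libraries had little of either subunit. GUCY1A1 had 0, 1, 0 and 7 counts, and GUCY1B1 had 7.02, 4.25, 9.98 and 52.1 CPM. Replicate 4 stood apart in both genes, and its GUCY1B1 level lay above all unstimulated libraries. Neither gene passed the edgeR test (GUCY1A1 log2 fold change -2.49 ± 0.87, adjusted p = 0.0826, and GUCY1B1 -1.09 ± 0.42, adjusted p = 0.115). DESeq2 on the same libraries called GUCY1A1 (-2.56, adjusted p = 0.0375), and edgeR called both when all genes with any count were tested (adjusted p = 0.00171 and 0.0287). Without TGF-β1 replicate 4 both passed (-4.64, adjusted p = 0.0162, and -2.46, adjusted p = 4.77e-05), as did GUCY1A1 without unstimulated replicate 3 (-2.79, adjusted p = 0.0489). The GUCY1A1 value of -4.64 rests on 1 count with TGF-β1.

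IL-13, IFNα and IFNγ had higher mean levels of GUCY1A1 (34.2 ± 12.8, 23.7 ± 8.66 and 30.7 ± 13.1 CPM, SD, n = 4) than unstimulated cells (9.84 ± 8.08 CPM), without passing the test (adjusted p = 0.106, 0.245 and 0.0909). Leaving out unstimulated replicate 4, the highest control, gave a call with IFNγ (log2 fold change 2.32, adjusted p = 0.034). The 4 GUCY1B1 libraries with IFNγ (11.4 to 30.7 CPM) lay below those of unstimulated cells, with an adjusted p of 0.167. IL-6, which shares a receptor chain with OSM, left GUCY1A1 at 8.62 ± 3.06 CPM and GUCY1B1 at 52.2 ± 11.9 CPM, and GUCY1A1 differed between OSM and IL-6 directly (log2 fold change 3.32 ± 0.65, adjusted p = 0.000879). GUCY1B1 did not pass that direct test (0.99 ± 0.38, adjusted p = 0.196). It was called in the fit of the 8 libraries alone (adjusted p = 0.00926) and when all genes with any count were tested (adjusted p = 0.0425).

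**Figure D3:**
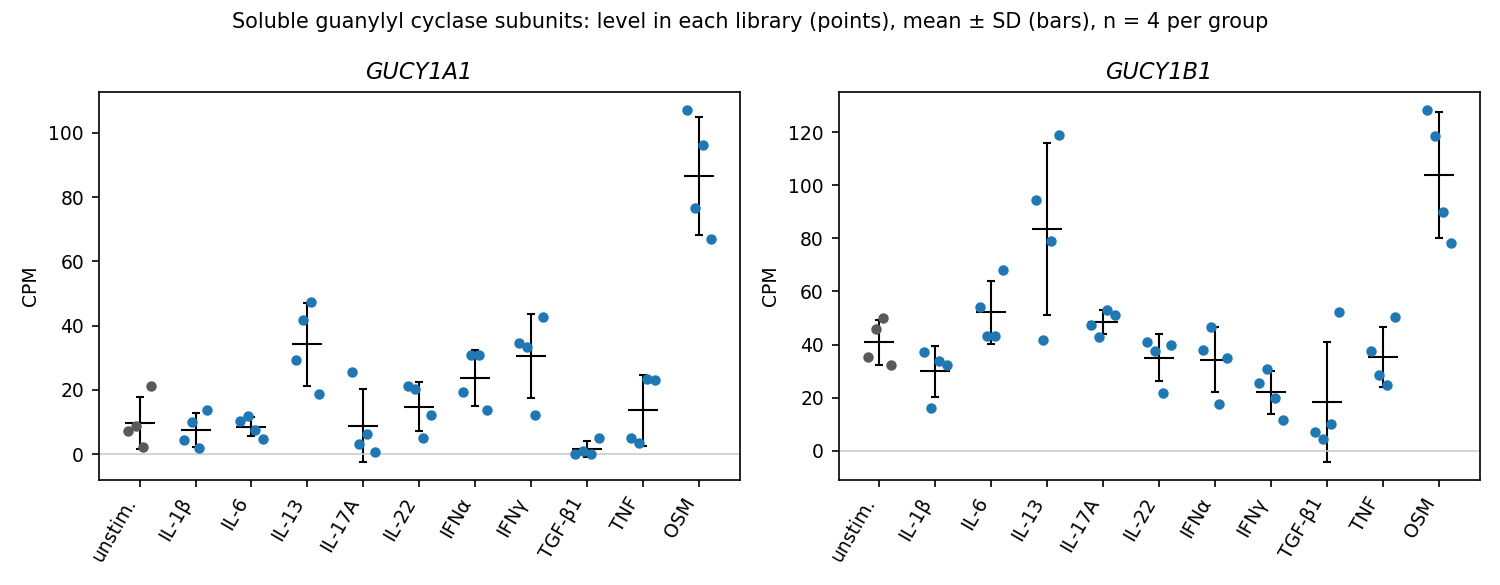
CPM of GUCY1A1 and GUCY1B1 in each library (points) of the 11 groups, with mean ± SD of 4 libraries (bars). OSM libraries sit between 66.8 and 107 CPM for GUCY1A1 and between 78.3 and 129 CPM for GUCY1B1, and TGF-β1 replicate 4 stands at 52.1 CPM of GUCY1B1 above the other 3 at 4.25 to 9.98.

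PDE5A (chr4:119494397-119628804), the cGMP-selective phosphodiesterase, fell with 4 cytokines. Unstimulated libraries had 149, 174, 164 and 110 CPM. Libraries given IFNγ had 46.7, 54.0, 16.5 and 22.8 CPM, and those given TGF-β1 had 26.5, 18.1, 37.2 and 76.3 CPM. None of these overlapped the unstimulated group. TNF left 38.1, 34.5, 42.0 and 80.9 CPM, and IL-1β 48.4, 66.9, 46.4 and 56.4 CPM, again all below the lowest control. PDE5A fell by 2.09 ± 0.35 with IFNγ on the log2 scale (adjusted p = 2.01e-05), by 1.89 ± 0.34 with TGF-β1 (adjusted p = 0.00025), by 1.59 ± 0.33 with TNF (adjusted p = 0.000653) and by 1.45 ± 0.33 with IL-1β (adjusted p = 0.0022), that is, 4.26-, 3.71-, 3.01- and 2.74-fold. All 4 calls were kept in each of the 14 alternative fits, which hold no fold threshold, and the change with IL-1β was under the study's log2 threshold of 1.5.

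PDE5A was highest with IL-13 (214, 291, 174 and 205 CPM), where libraries overlapped the controls in level (log2 fold change 0.56 ± 0.32, adjusted p = 0.406). IL-6 (126 ± 43.2 CPM) spread across and below the control range, IFNα (124 ± 54.7 CPM) from below to above it, and IL-22 (94.9 ± 19.3 CPM), OSM (93.2 ± 15.3 CPM) and IL-17A (89.0 ± 29.4 CPM) lay lower on average without passing the test (adjusted p = 0.474, 0.294 and 0.313). The interferons differed directly, with PDE5A higher after IFNα than after IFNγ (log2 fold change 1.82 ± 0.35, adjusted p = 0.000239).

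Markers of smooth muscle and myofibroblasts moved in part with PDE5A. The summed level of 8 such genes ran from 2158 to 4703 CPM in unstimulated cells (1 of the 8 at 0 in that group), from 824 to 1294 with IL-1β, from 883 to 1885 with IFNγ and from 1439 to 2408 with TNF, but from 2075 to 5251 with TGF-β1. ACTA2, smooth muscle actin, and MYLK, myosin light chain kinase, both fell with IL-1β, IFNγ and TNF, by 2.19 and 1.69 with IL-1β on the log2 scale (adjusted p = 8.51e-05 and 8.54e-06), and of 7 tested markers 4, 2 and 2 were lower with these cytokines and none with TGF-β1. They also fell with IL-17A (3 of 7 lower), where PDE5A was not called. With IL-13, where PDE5A was highest but not called, the sum ran from 5276.5 to 6867 CPM, and 1 of 7, MYLK, was higher. Of the 12 fibroblast markers, all tested, 7 were lower with TNF, 5 with IL-1β, 4 with TGF-β1 (1 higher) and 2 with IFNγ, that is, with each cytokine that lowered PDE5A, and 3 were lower with IL-17A, 2 with IFNα and 1 with IL-13 (2 higher), with 1 higher with OSM. Of all genes tested, 11.5% were called with TNF, 7.38% with IL-1β, 5.69% with TGF-β1 and 10.6% with IFNγ. With IL-17A, IFNα, IL-13 and OSM the shares were 1.52%, 9.85%, 3.93% and 3.96%. The part of these markers, or of CD68 with IFNγ, in the PDE5A result was not tested.

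The counts of GUCY1B1 per count of PDE5A, a cyclase subunit set against the enzyme that degrades its product, were 0.237, 0.264, 0.305 and 0.292 in the unstimulated libraries. With OSM they were 1.30, 1.68, 0.912 and 0.748, with TNF 0.981, 0.825, 0.589 and 0.623, and with IFNγ 0.548, 0.569, 1.21 and 0.500. All of these libraries lay above the 4 controls, as did those with IL-17A (0.583, 0.671, 0.667 and 0.389), where neither gene was called. In the OSM group the numerator was called and PDE5A was not, whereas in the TNF and IFNγ groups PDE5A was called and GUCY1B1 was not. With TGF-β1 the ratio was 0.265, 0.235 and 0.268 in 3 libraries, within or just below the control range, and 0.683 in replicate 4. The ratio is not corrected for length, so it compares groups and not genes, and it is a description with no test.

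**Figure D4:**
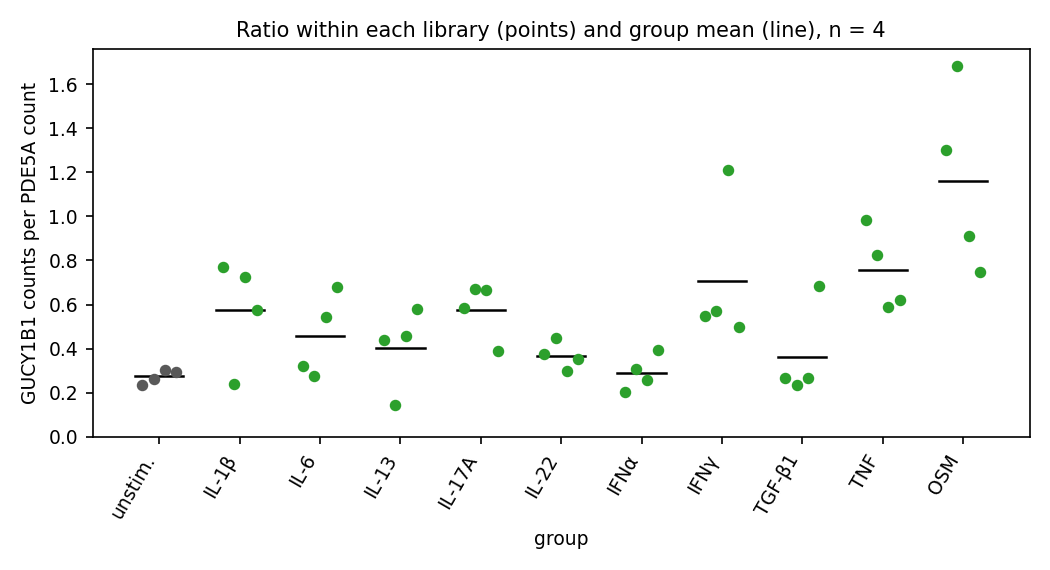
GUCY1B1 counts per PDE5A count within each library (points) and the group mean (line) for the 11 groups of 4 libraries. Unstimulated libraries lie between 0.237 and 0.305, and those with OSM between 0.748 and 1.68.

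PDE1A (chr2:182139968-182523359), a calcium- and calmodulin-dependent phosphodiesterase of both nucleotides, fell to few or no counts with TNF and IL-1β. It had 41, 28, 17 and 18 counts in the unstimulated libraries. There were 0, 0, 0 and 0 counts with TNF, and 0, 0, 1 and 7 counts with IL-1β. Neither group reached the lowest control, and every TNF library was empty. With TNF the level was at least 7.56-fold lower (16.2 ± 4.69 CPM in unstimulated cells against a limit of 3 counts per library, adjusted p = 0.0001). With IL-1β PDE1A fell by 3.62 ± 0.89 on the log2 scale (adjusted p = 0.00513), and replicate 4 held most of what was left. Both calls were kept in all 14 alternatives, and without IL-1β replicate 4 the log2 fold change came to -5.84, which rests on 1 count with IL-1β. IFNγ libraries had 6, 15, 0 and 1 counts, of which only replicate 2 reached the control range in CPM (adjusted p = 0.128), and PDE1A was called when that library was left out (log2 fold change -3.10, adjusted p = 0.018). IL-13 libraries spread from 3.09 to 47.1 CPM. The related PDE1C, untested, had 2, 3, 3 and 10 counts in unstimulated cells and none in the TNF and TGF-β1 libraries. Summed over 4 libraries, it had 1 count with each of IL-1β, IL-17A and OSM and 2 with each of IL-13 and IFNα. With IFNγ, IL-6 and IL-22 the sums were 9, 12 and 18. PDE1C was called with TNF (adjusted p = 0.047) when all genes with any count were tested.

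PDE10A (chr6:165327287-165988117), which also cleaves both nucleotides, moved in opposite directions. Unstimulated libraries had 9, 2, 6 and 8 counts, a low starting level. IL-1β gave 66, 19, 18 and 54 counts and TGF-β1 56, 27, 12 and 13 counts. Each of these 8 libraries lay above the controls. The log2 fold changes were 2.54 ± 0.67 with IL-1β (adjusted p = 0.0102) and 2.54 ± 0.68 with TGF-β1 (adjusted p = 0.016). Without unstimulated replicate 2 neither call held (adjusted p = 0.054 and 0.0762), and without TGF-β1 replicate 1 the latter was lost too (adjusted p = 0.109). IL-17A libraries (45, 19, 19 and 41 counts) were also all above the controls, with a log2 fold change of 2.23 ± 0.67 that missed the threshold (adjusted p = 0.0856) and passed it in 4 alternatives, DESeq2 (adjusted p = 0.026) among them.

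With OSM, PDE10A had 0, 0, 1 and 0 counts, all below the controls. Set against the limit of 3 counts per library it was at least 1.92-fold lower (adjusted p = 0.0288), and this call was lost in 6 of 14 alternatives, including the fit of the 8 libraries alone and the fits without OSM replicate 1, 2 or 4 or unstimulated replicate 3 or 4 (adjusted p up to 0.111). Against TGF-β1 itself (9.54 to 43.7 CPM), OSM left PDE10A at least 11.5-fold lower (adjusted p = 6.67e-06), a call kept in all 14. LINC00602, a long noncoding RNA, overlaps PDE10A on the opposite strand with up to 15 counts, and since the default settings used for counting ignore strand, reads of both cannot be told apart where they overlap.

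PDE6D (chr2:231732433-231786272) rose with TNF. It had 40.6, 29.2, 14.8 and 32.8 CPM in unstimulated cells and 62.1, 49.1, 56.3 and 69.1 CPM with TNF, with no overlap. The log2 fold change was 1.00 ± 0.28 (adjusted p = 0.0106), and the call was lost without unstimulated replicate 3, the lowest control (adjusted p = 0.0545). The other 9 cytokines gave log2 fold changes of 0.08 or more, none past the test. COPS7B, on the opposite strand, overlaps PDE6D and had at most 11 counts.

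**Figure D5:**
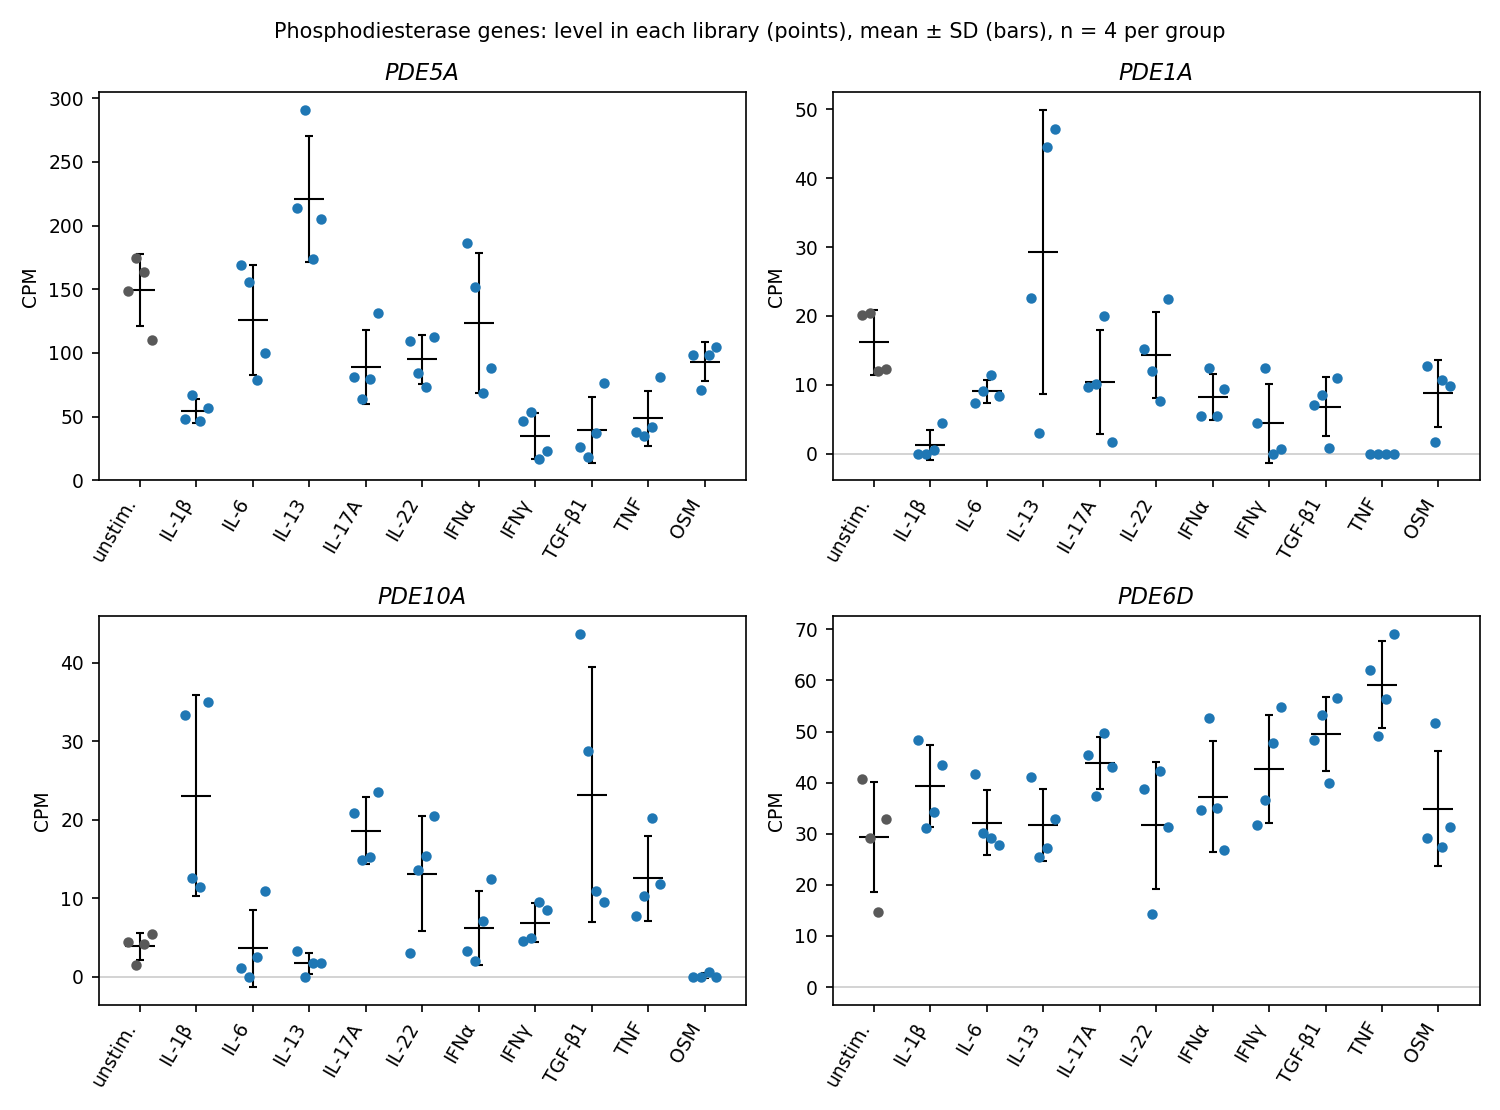
CPM of PDE5A, PDE1A, PDE10A and PDE6D in each library (points) of the 11 groups, with mean ± SD of 4 libraries (bars). PDE5A lies below the control libraries with IL-1β, IFNγ, TGF-β1 and TNF, PDE1A is at 0 in all TNF libraries, PDE10A is at most 0.667 CPM with OSM, and PDE6D is at 49.1 CPM or more with TNF.

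In the main fit of 9513 genes, PDE7B was the only one of the 5 tested cAMP-selective phosphodiesterases to differ across the 11 groups (adjusted p = 0.000655). It was called there with no cytokine against unstimulated cells. Its levels ran from 20.1 to 36.9 CPM in unstimulated cells, from 45.5 to 63.8 CPM with IL-22, from 5.20 to 26.4 CPM with IFNγ and from 14.2 to 20.6 CPM with OSM. IL-22 libraries were all above the controls (adjusted p = 0.409), and OSM and IFNγ libraries reached only the lower part of their range (adjusted p = 0.215 and 0.0853). Leaving out IFNγ replicate 1 gave a call for PDE7B with IFNγ (log2 fold change -1.45, adjusted p = 0.021). PDE7B was higher with IFNα than with IFNγ (log2 fold change 1.21 ± 0.39, adjusted p = 0.0388), a call lost in 7 of 14 alternatives, among them the fits without any 1 IFNα library and without IFNγ replicate 3 or 4. PDE7B-AS1 overlaps it on the opposite strand with at most 9 counts. PDE4B, PDE4D, PDE7A and PDE8A, with the kinase PRKG1 and the cyclases ADCY3 and ADCY7, made up the 7 tested genes called in no comparison of the main fit. Their log2 fold changes against unstimulated cells ran from -1.91 (ADCY7 with OSM) to 1.85 (PRKG1 with IL-17A), and their smallest adjusted p was 0.249. Leaving out IL-13 replicate 1, which had 32 PDE4B counts beside 3, 5 and 4 in the others, gave a call for PDE4B with IL-13 (log2 fold change -2.52, adjusted p = 0.00625). PDE4B also differed across the 11 groups when replicate 1 of every group was left out (adjusted p = 0.0221).

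The adenylyl cyclases were near the limit of what could be followed, with 4.20 ± 3.02 CPM of ADCY3 and 5.81 ± 2.78 CPM of ADCY7 in unstimulated cells. No change of either was detected at this depth. The kinases were uneven between replicates. PRKG1, the cGMP kinase of smooth muscle and platelets, had 39, 0, 16 and 7 counts in unstimulated cells, 30, 0, 32 and 0 with TNF and 29, 0, 0 and 0 with IL-22. Libraries of these groups thus held none or many of its counts, and IL-6 and TGF-β1 had libraries at 0 too. With IL-17A (75, 36, 23 and 86 counts), IL-1β, IL-13, IFNα, IFNγ and OSM, every library held some. No comparison of PRKG1 passed the test in the main fit. When all genes with any count were tested, PRKG1 was called with IL-17A (log2 fold change 1.84, adjusted p = 0.0276). It was then also called for TGF-β1 against IL-13 (-1.72, adjusted p = 0.0244) and across the 11 groups (adjusted p = 3.99e-07). PRKG2, the membrane-bound kinase known from intestinal epithelium and cartilage, had 4, 10, 2 and 12 counts in unstimulated cells, 9, 9, 4 and 25 with TGF-β1, 0, 3, 0 and 0 with IL-13, 0, 1, 0 and 0 with IL-22 and 0, 1, 0 and 2 with OSM. TGF-β1 libraries were all above those of the other 3 cytokines. PRKG2 differed among the groups (adjusted p = 0.00399) but with no cytokine against the controls (smallest adjusted p = 0.17).

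Cytokines were also set against each other in 8 direct comparisons in the same fit. TGF-β1 and IL-13, both linked to fibrosis, differed in 5 of 15 genes (12.4% of all genes). With TGF-β1, PDE10A (log2 fold change 3.67 ± 0.75, adjusted p = 0.000489) and PRKG2 (adjusted p = 0.0165) were higher. For PRKG2, 9, 9, 4 and 25 counts stood against 0, 3, 0 and 0 with IL-13. GUCY1A1, GUCY1B1 and PDE5A were lower, with log2 fold changes of -4.29 ± 0.82, -2.13 ± 0.41 and -2.45 ± 0.35 (adjusted p = 0.000168, 0.000218 and 9.76e-07). Here both guanylyl cyclase subunits and PDE5A stood lower with the same cytokine. OSM and TGF-β1 also differed in 5 of 15 (6.87%), with GUCY1A1, GUCY1B1 and PDE5A higher with OSM (5.63 ± 0.81, 2.44 ± 0.41 and 1.21 ± 0.34 on the log2 scale, adjusted p = 2.3e-06, 3.78e-05 and 0.02). PDE10A was at least 11.5-fold lower with OSM, and PRKG2 was lower (0, 1, 0 and 2 counts, adjusted p = 0.0204). Without TGF-β1 replicate 4, GUCY1B1 came to -3.52 against IL-13 and to 3.83 for OSM against TGF-β1. GUCY1A1 came to -6.47 and 7.79 without that library, and to 5.17 for TNF against TGF-β1. These GUCY1A1 values each rest on 1 count with TGF-β1. The PRKG2 call against IL-13 was lost without TGF-β1 replicate 4 or IL-13 replicate 1, 3 or 4 (adjusted p up to 0.0619), and that against OSM without TGF-β1 replicate 4 or OSM replicate 1, 2 or 3 (adjusted p up to 0.0809). The PDE5A call against OSM was lost without TGF-β1 replicate 1, 2 or 3 or OSM replicate 4 (adjusted p up to 0.0997).

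OSM and IL-6 differed in GUCY1A1 and PDE10A (2 of 15, against 2.67%). PDE10A was lower with OSM (adjusted p = 0.0449), with 0, 0, 1 and 0 counts against 2, 0, 4 and 18 with IL-6. That PDE10A call was lost in 7 of 14 alternatives, among them the fits without IL-6 replicate 3 or 4 or OSM replicate 1, 2 or 4 (adjusted p up to 0.489). IFNα and IFNγ differed in PDE5A and PDE7B (2 of 15, against 9.39%). TNF and TGF-β1 differed in 2 of 15 (6.22%), with GUCY1A1 higher with TNF (log2 fold change 3.00 ± 0.85, adjusted p = 0.0215) and PDE1A lower (adjusted p = 0.0037). PDE1A had 9, 8, 1 and 15 counts with TGF-β1 and none with TNF. The GUCY1A1 call was lost in the fit of the 8 libraries alone and without TGF-β1 replicate 1, 2 or 3 or TNF replicate 3 or 4 (adjusted p up to 0.103). TNF and IFNγ differed in PDE1A alone (1 of 15, against 8.01%), which was lower with TNF (adjusted p = 0.0126). PDE1A had 0 counts in every TNF library and 6, 15, 0 and 1 counts with IFNγ. That call was lost in the fit of the 8 libraries alone and without IFNγ replicate 2 (adjusted p up to 0.133). TNF and IL-1β, which both lowered PDE1A and PDE5A against the shared controls, were not told apart in any of the 15 (1.15% of all genes called, 2 of the 15 at unadjusted p under 0.05, 0 by DESeq2). PDE5A differed by -0.14 ± 0.34 between them on the log2 scale. IL-17A and IL-1β gave no call among the 15 either (3.4% of all genes, 2 at unadjusted p under 0.05, 1 by DESeq2).

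Other genes of the pathway were followed as lists. Of 6 tested genes for protein kinase A and its inhibitors, 1 was higher and 2 lower with IFNα, 1 higher with IFNγ, 1 lower with TGF-β1, 1 higher and 1 lower with TNF and 1 lower with OSM, and past the 1.5 threshold only PRKAR2B, a regulatory subunit, fell by 1.65 ± 0.35 with TGF-β1 (adjusted p = 0.0018). Of 8 tested receptors and G proteins, 1 was higher with IL-1β and 1 with TGF-β1, and NPR3, the clearance receptor of natriuretic peptides, fell with IL-13, IFNγ, TNF and OSM, by 1.68 ± 0.33 with TNF (adjusted p = 0.000291) and by 1.65 ± 0.33 with OSM (adjusted p = 0.000889). Of 6 tested effectors and anchors, 1 was higher and 1 lower with IL-1β, with IFNα and with OSM, 1 lower with IFNγ, 2 higher with TGF-β1 and 2 higher and 2 lower with TNF. The shares of all genes called, 7.38% with IL-1β, 9.85% with IFNα, 10.6% with IFNγ, 5.69% with TGF-β1, 11.5% with TNF and 3.96% with OSM, stand beside these counts, and no list was tested as a whole.

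Phospholamban (PLN), a calcium pump inhibitor that protein kinase A and cGMP kinase phosphorylate, had 10.1 ± 0.687 CPM in unstimulated cells and 50.1 ± 12.8 CPM with TGF-β1 (log2 fold change 2.31 ± 0.60, adjusted p = 0.0126). It fell with IL-1β, IFNγ and TNF, to 0.948, 0.217 and 0.353 CPM on average (adjusted p = 0.00294, 0.000216 and 0.000273). These means stand for few or no counts, since a count of 3 is 1.39 CPM or more in every library. IRAG1, a substrate of the cGMP kinase PRKG1 at the endoplasmic reticulum, fell by 2.25 ± 0.69 with TNF (adjusted p = 0.0249). POPDC3, a cAMP-binding membrane protein, rose with IL-1β, TGF-β1 and TNF (log2 fold change 1.77 to 2.16). Among 7 tested genes of the CREB family and its response, NR4A2 rose by 2.24 ± 0.62 with IL-1β (adjusted p = 0.015) and fell by 3.48 ± 0.89 with IL-13 (adjusted p = 0.0151), CREM rose with IFNγ, and no other was called against unstimulated cells.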

How the data were processed

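The 44 libraries of total RNA were prepared with the NEBNext Ultra II kit and sequenced on a Illumina NovaSeq. The deposited table holds estimated counts per gene symbol, made by the authors with kallisto 0.48.0 at default settings, which ignore strand (hg38, per the submitters' processing notes, with FastQC 0.11.9 and MultiQC 1.14). The transcript release is not given in the sources used here. Of the values, 5.77% were not whole, and all were rounded. Genes were filtered with filterByExpr over the 11 groups (9513 kept) and scaled by TMM, and edgeR 4.0.16 (R 4.3.3) fitted 1 coefficient per group over all 44 libraries. Adjusted p-values are Benjamini-Hochberg over all genes tested, and standard errors are the log2 fold change over the square root of F. The common coefficient of variation was 0.331. Depth was 742173 to 2213424 counts per library.

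Genes named with values per library are those called against unstimulated cells, others appear by range and count, and genes of the other lists are named where they pass adjusted p under 0.05 with a log2 fold change above 1.5 in size. CREM, CD68, ACTA2, MYLK, PDE1C, PDE4B, PDE7B, PRKG1 and PRKG2 were named outside that rule, after their values were seen. Members and lists were chosen with earlier results of these data known. Gene positions are from GENCODE release 44 (GRCh38), and promoter windows from RefSeq, which held 31 of the 38 genes. Alternatives were DESeq2 1.42.0, its size factors, other filters on low counts, the fold threshold, a replicate block, the 8 libraries compared alone, and fits without each library. No 2 libraries were identical. The labels tie the replicate numbers to no shared culture or day, and the deviations of same-numbered samples did not meet the criterion for pairing (a correlation over 0.1 in every pair). On simulated counts for TNF against unstimulated cells over 9513 genes, edgeR called 73 of 89 genes changed by 3 on the log2 scale and 57 of 111 changed by 1.5, with 5 unchanged genes called. The changed genes were drawn from all tested genes, whose median count in unstimulated libraries was 34. PDE10A, PRKG2 and the adenylyl cyclases had fewer counts on average, so these rates cannot be carried over to them.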

Additional observations from a re-analysis of the deposited data

Results flagged for a closer look

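Over the 11 groups, each of the 6 genes called with at least 1 cytokine was examined, 66 sets of 4 libraries in all. In these, 6 values lay farther from the rest of their set than Dixon's critical value allows. For normally distributed values chance would give about 3.3 (1 in 20), a rate that does not hold for sets of counts near 0. GUCY1B1 had 52.1 CPM in TGF-β1 replicate 4, and 4.25 to 9.98 CPM in the other 3. PDE5A had 80.9 CPM in TNF replicate 4, and 34.5 to 42.0 CPM in the others. PDE1A had 4.54 CPM in IL-1β replicate 4, and 0 to 0.635 CPM in the others. PDE10A had 0.667 CPM, a single count, in OSM replicate 3 and 0 in the others, which passes by construction since the others are equal. PDE6D had 41.7 CPM in IL-6 replicate 1 against 27.8 to 30.1 CPM, and 51.6 CPM in OSM replicate 2 against 27.4 to 31.3 CPM.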

How the results depend on the processing

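Of 29 calls followed through 14 alternatives each, 17 were kept in all, 7 of them among the 12 calls against unstimulated cells. Over 406 refits 357 kept the call, 49 lost it and 0 reversed it. Testing all genes with any count gave 2 calls with IL-13 (GUCY1A1 and GUCY1B1), 2 with IL-17A, 3 with IFNγ and 4 with TGF-β1, against 0, 0, 1 and 2, and 1 for IL-17A against IL-1β in place of 0. DESeq2 gave 1 call with IL-17A and 1 for IL-17A against IL-1β. The 8 libraries compared alone gave 1 call with IL-17A, 1 for IFNα against IFNγ, 1 for TNF against TGF-β1 and 0 for TNF against IFNγ. The fold threshold left 9 of the 12 calls against unstimulated cells (2 in place of 3 each with IL-1β, TNF and OSM), 1 call for IFNα against IFNγ and 4 for OSM against TGF-β1. DESeq2 also called GUCY1A1 with TGF-β1, and PDE1A for TGF-β1 against IL-13. The cause of these differences was not tested.

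With each of the 8 libraries of a comparison left out in turn, the calls ran from 2 to 3 with IL-1β, 0 to 1 with IL-13, 1 to 2 with IFNγ, 1 to 4 with TGF-β1, 2 to 3 with TNF and 1 to 3 with OSM, and stayed at 0 with IL-6, IL-17A, IL-22 and IFNα. They ran from 1 to 2 for IFNα against IFNγ, 4 to 6 for TGF-β1 against IL-13, 1 to 2 for OSM against IL-6, 1 to 3 for TNF against TGF-β1, 0 to 2 for TNF against IFNγ, 0 to 1 for IL-17A against IL-1β, 4 to 4 for OSM against TGF-β1 and 0 to 0 for TNF against IL-1β. With each replicate number left out in turn, 6 to 8 genes differed across the 11 groups. When all genes with any count were tested, PDE1C (adjusted p = 0.00135) and PRKG1 (adjusted p = 3.99e-07) differed among the groups too.

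The replicate numbers were not taken to pair the samples, since 20 of 220 same-number pairs had correlated deviations over 0.1. The mean correlation was 0.0237 for the same number and -0.0077 for other numbers, and 22 of 44 libraries correlated best with their own of the 4 numbers, more than 1 in 4, a hint of weak pairing from the data and not the design. The replicate block gave 1 call with IL-17A in place of 0 (PDE10A) and 1 for OSM against IL-6 in place of 2, and no other count moved by over 1.5 times. Depth limits what can be said of the 23 untested genes and of PDE10A, PRKG2 and the adenylyl cyclases.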
